A study of Mus musculus with 12 samples.

Results

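The genes described here encode enzymes of the tricarboxylic acid (TCA) cycle, of the reactions that feed it or draw from it (anaplerosis and cataplerosis), and of glutamate and glutamine metabolism. They were taken as a list of 29 gene symbols, chosen with earlier results of these data known, and all 29 matched 1 row each of a table of 32285 genes. RNA was sequenced from the nucleus pulposus, which forms the soft centre of each tail (caudal) disc, of 6 Opa1cKO and 6 WT mice, each library from a different mouse. All mice were 12 months old, on a C57BL/6-129/SvEv background, and both genotypes received tamoxifen at 100 mg/kg on 3 days in a row. In Opa1cKO mice AcanCre, a tamoxifen-activated recombinase expressed from the aggrecan gene, deleted Opa1 at 3 months of age, and 9 months passed before collection. The labels do not say whether WT mice carried the Cre or a floxed allele. OPA1 is a GTPase that fuses inner mitochondrial membranes and shapes cristae, and the series text asks how its loss alters the transcriptome of this tissue.

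As background, the TCA cycle oxidises acetyl groups in the mitochondrial matrix and passes the electrons to the respiratory chain. Its intermediates are also withdrawn for synthesis, citrate for lipids and 2-oxoglutarate for glutamate, and are replaced through pyruvate carboxylase, the malic enzymes and glutamate. Several steps have a cytosolic and a mitochondrial enzyme encoded by separate genes. Nucleus pulposus cells live in a tissue almost without vessels and are known for drawing their energy largely from glycolysis.

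Libraries held 37268242 to 56618266 counts in Opa1cKO and 45657321 to 53261644 in WT. Opa1 itself was lower in all 6 Opa1cKO libraries, at 30.2 to 47.7 CPM, than in the 6 WT libraries, at 69.3 to 118 CPM (CPM, counts scaled to a common library size with TMM factors). This count covers the whole gene in every cell sampled. The Opa1cKO group holds 2 labelled females and 4 males, the WT group 4 females and 2 males. Sex-linked reads contradicted the labelled sex of 4 libraries, Opa1cKO 4, WT 4, WT 5 and WT 6. Calls that are lost without these 4 are named below. By sex-linked reads the Opa1cKO group holds 3 females and 3 males, the WT group 5 females and 1 male. The only labelled WT males, WT 5 and WT 6, read as female, and WT 4, labelled female, read as male. Fits of labelled males or females alone follow the labels, so they are not comparisons within 1 sex. Summed nucleus pulposus markers ran from 42652 to 53820 CPM in Opa1cKO and from 43355 to 55695 CPM in WT. Most of this sum was Car3, at 30376 CPM on average in Opa1cKO and 28954 CPM in WT, so it says little about the other markers. Acan averaged 8628 CPM in Opa1cKO and 13062 CPM in WT, and Col2a1 1261 and 608 CPM, neither past the threshold used below. The notochord factor T averaged 2882 and 2719 CPM, while the notochord genes Noto and Shh were below 1 CPM on average in both genotypes. Skeletal muscle markers, a tissue rich in TCA enzymes, summed to at most 17.2 CPM in any Opa1cKO library and 17.8 CPM in any WT library. In bulk RNA, fewer cells of a type and less RNA per cell cannot be told apart.

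Few of these enzymes were called by genotype, and their share at an unadjusted p below 0.05 was near that of all genes tested. Of the 29 genes, all of which passed the filter on low counts, 1 was lower and none higher in Opa1cKO at an adjusted p below 0.05 (edgeR quasi-likelihood test with labelled sex as a covariate, Benjamini-Hochberg adjustment over 15229 genes; DESeq2 called 2 lower and none higher). Over all genes tested 777 were higher and 781 lower, 10.2% in all, 5.1% and 5.13% by direction. The CPM ranges of the genotypes overlapped for all 29, while 6.41% of all genes tested had ranges apart, 2.77% higher and 3.64% lower in Opa1cKO. At an unadjusted p below 0.05 stood 7 of the 29, or 24.1%, against 25.2% of all genes tested. The median log2 fold change of the 29 was 0.06, Opa1cKO over WT, and that of all genes tested 0.01. Log2 fold changes ran from -0.53 for Glul to 0.69 for Ogdhl. Of the 29, 20 were above 0 and 9 below, against 7903 above and 7326 below over all genes tested. Several of the 29 changed sign in other settings, as given at the end.

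The fit with labelled sex as a covariate also bounded the size of changes. For 22 of the 29 genes, or 75.9%, the 95% interval of the fold change lay within 1.5-fold in either direction, against 55.2% of all genes tested. These enzymes were well measured, with a median of 64.5 CPM against 17.7 CPM over all genes tested and a median standard error of 0.12 against 0.14 on the log2 scale. The intervals that reached past 1.5-fold were those of Me1, Glul, Me3, Idh3a, Ogdhl, Got1 and D2hgdh. No intervals were computed for other settings, some of which moved the values. Without the 4 libraries of contradicted sex, Ogdh stood at -0.43 (SE 0.157) and Suclg2 at -0.37 (SE 0.152). In labelled males alone Idh2 stood at 0.37 (SE 0.118). A value that misses the threshold does not show that the genotypes were alike.

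**Figure D1:**
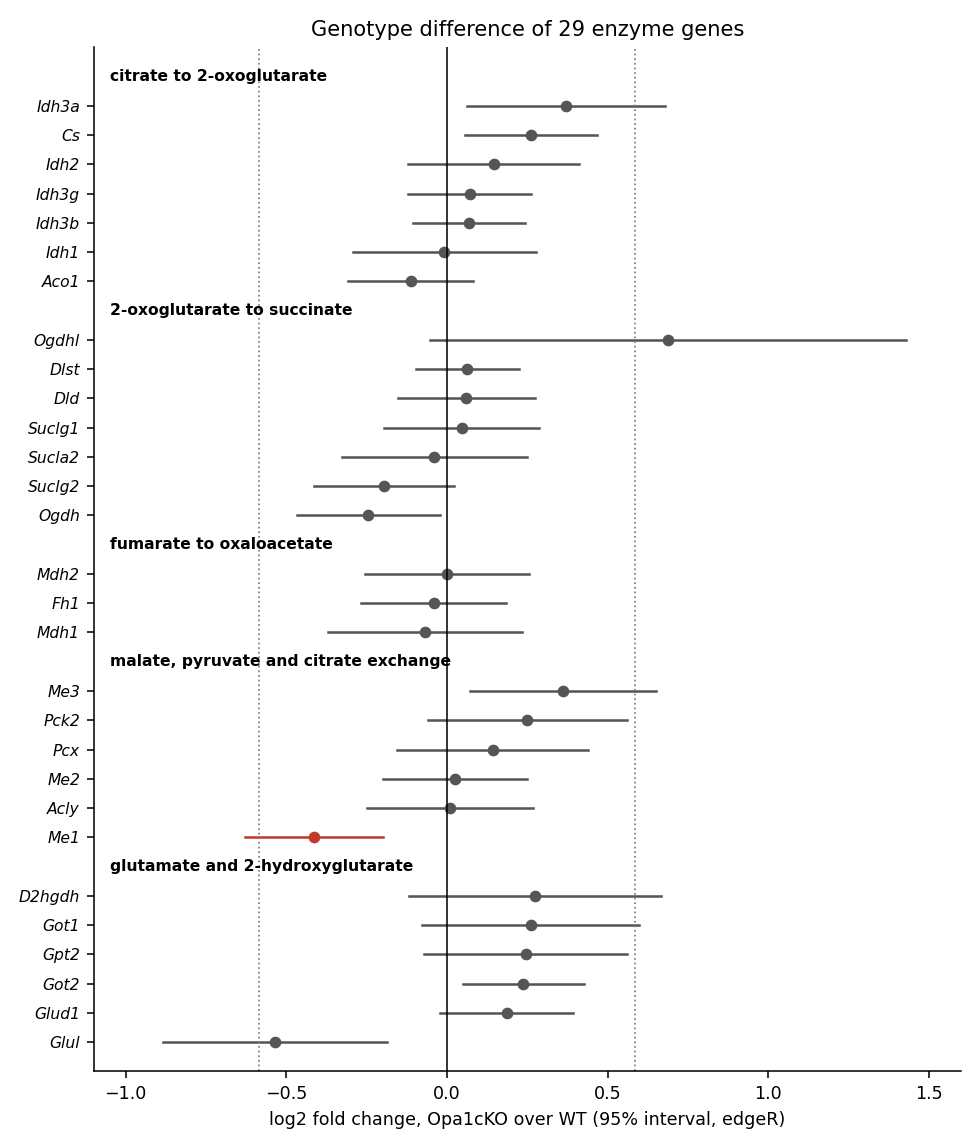
Log2 fold change, Opa1cKO over WT, of the 29 genes with its 95% interval from edgeR, grouped by reaction; red marks the 1 gene past the threshold, Me1, and dotted lines mark 1.5-fold. Most points sit within 0.3 of 0, with Ogdhl (0.69) and Glul (-0.53) farthest out.

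Levels between genes were compared in TPM, the deposited unit scaled by gene length. Me1, the cytosolic NADP-dependent malic enzyme, had the highest level of the 29 in both genotypes, at 332 ± 36.2 TPM in Opa1cKO and 448 ± 45.1 TPM in WT (SD, n = 6 each). Next stood Idh2, the mitochondrial NADP-dependent isocitrate dehydrogenase, at 308 ± 31.5 TPM in Opa1cKO and 276 ± 38.2 TPM in WT, and Glul, glutamine synthetase, at 286 ± 40.3 TPM in Opa1cKO and 407 ± 93.6 TPM in WT. In Opa1cKO the spread of these 3 genes overlapped, and in WT that of Me1 and Glul did, with Glul above Me1 in WT 1 and WT 6, so the order at the top is not resolved in either genotype. Glud1, the mitochondrial glutamate dehydrogenase, followed at 245 ± 28.3 and 219 ± 20.1 TPM in Opa1cKO and WT.

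At the low end were Ogdhl, at 4.98 ± 1.66 TPM in Opa1cKO and 2.82 ± 1.49 TPM in WT, and Me3, at 5.37 ± 0.790 TPM in Opa1cKO and 4.40 ± 0.978 TPM in WT. Most core enzymes of the cycle, among them Cs, Mdh2, Idh3g, Idh3b, Dld and Suclg1, lay between about 39.2 and 91.0 TPM. Summed over the 29 genes, levels per library ran from 2568 to 2988 TPM in Opa1cKO and from 2602 to 3139 TPM in WT. The ranges overlapped in part. WT 1 and WT 2, at 3139 and 3039 TPM, were above every Opa1cKO library. Opa1cKO 1, Opa1cKO 4 and Opa1cKO 5, at 2579, 2576 and 2568 TPM, were below every WT library.

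**Figure D2:**
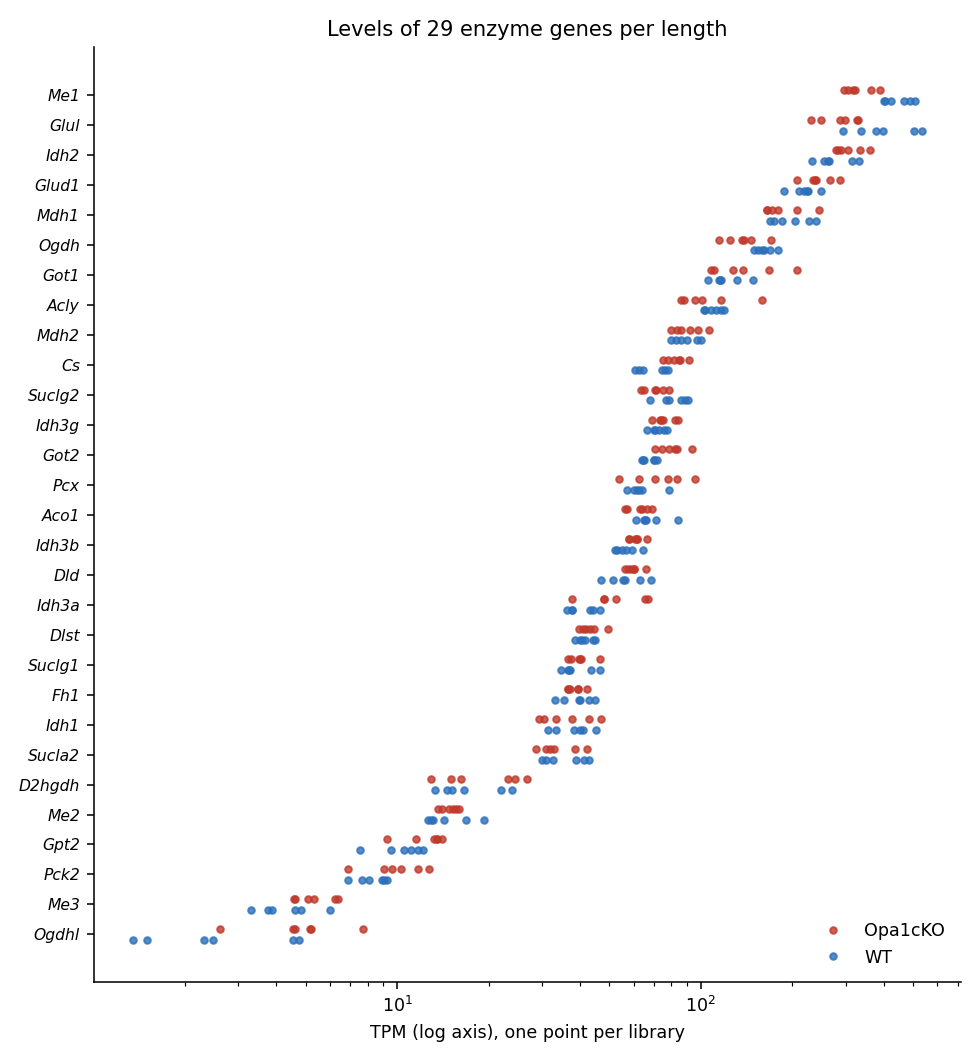
TPM of each of the 29 genes on a log axis, 1 point per library, Opa1cKO in red above WT in blue, ordered by mean level. All red points of Me1 lie left of the blue ones, and Ogdhl and Me3 have the lowest levels.

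The RNA of malic enzyme 1 fell. Me1 makes cytosolic NADPH and pyruvate from malate. In Opa1cKO its lowest, median and highest values were 253, 265 and 336 CPM, against 334, 379 and 422 CPM in WT. In 5 of 6 Opa1cKO libraries Me1 was below every WT library; the exception, Opa1cKO 3, stood at 336 CPM beside WT 5 at 334 CPM. On the TPM scale the genotypes did not overlap. The log2 fold change was -0.41 (SE 0.10, edgeR adjusted p = 0.0188), 0.751-fold. The call passed in 20 of 26 alternative settings, with adjusted p from 0.000799 to 0.352 over them. It was lost in labelled females alone (-0.55, adjusted p = 0.0988), in labelled males alone (-0.27, adjusted p = 0.352), without Opa1cKO 5 (-0.34, adjusted p = 0.0516), without Opa1cKO 6 (-0.41, adjusted p = 0.0556) and without the 4 libraries of contradicted sex (-0.55, adjusted p = 0.119).

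Me1 (ENSMUSG00000032418) lies on chromosome 9, 86581371 to 86695953, minus strand of mm10. Its processed pseudogene Gm7049 matched 1638 bases of the longest Me1 transcript at up to 98.5% identity, so part of its count is uncertain. The antisense gene A330041J22Rik shares 30 bases with Me1 exons, and without a stated strand setting their reads there cannot be told apart. The promoters of the 3 genes first by p, of which Me1 alone passed, are shown with any match to 6 short motifs in capitals. These are RefSeq windows of build GRCm38.p6, from 250 bases before to 50 after the annotated start, chr9:86695865-86696164 on the minus strand for Me1, chr1:153899679-153899978 on the plus strand for Glul and chr10:128337477-128337776 on the plus strand for Cs.
Me1: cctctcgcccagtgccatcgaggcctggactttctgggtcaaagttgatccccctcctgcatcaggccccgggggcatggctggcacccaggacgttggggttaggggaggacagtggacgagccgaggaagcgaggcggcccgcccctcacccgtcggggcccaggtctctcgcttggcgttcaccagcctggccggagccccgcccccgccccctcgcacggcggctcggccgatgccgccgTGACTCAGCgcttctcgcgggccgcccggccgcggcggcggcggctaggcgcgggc
Glul: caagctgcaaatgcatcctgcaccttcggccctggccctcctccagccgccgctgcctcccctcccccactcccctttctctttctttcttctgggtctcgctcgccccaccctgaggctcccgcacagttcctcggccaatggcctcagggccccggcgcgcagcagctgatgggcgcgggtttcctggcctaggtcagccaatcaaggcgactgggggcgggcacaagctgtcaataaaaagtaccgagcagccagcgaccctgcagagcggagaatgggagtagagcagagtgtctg
Cs: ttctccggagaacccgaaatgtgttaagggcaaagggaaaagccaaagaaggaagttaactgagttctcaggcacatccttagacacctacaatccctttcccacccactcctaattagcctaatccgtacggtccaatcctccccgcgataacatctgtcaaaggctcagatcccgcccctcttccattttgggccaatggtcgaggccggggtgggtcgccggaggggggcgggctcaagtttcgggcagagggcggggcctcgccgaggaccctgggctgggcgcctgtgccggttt

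The motifs, chosen after the values were seen and searched on both strands, were the antioxidant response element TGACNNNGC, the hypoxia response core ACGTG or GCGTG, the E-box CACGTG, which holds that core, the ATF4 composite element TGATGNAA, the NRF1 element (GCGC, any 2 bases, GCGC) and the ERR element AAGGTCA. The Me1 window held 1 match, TGACTCAGC, whose first base lies at position -6 from the annotated start, and those of Glul and Cs held none. Windows were matched for 27 of the 29 genes, all but Idh3a and Me2. The antioxidant response element was found in 6 of the 27, Me1, Ogdhl, Dlst, Idh3g, Mdh1 and Sucla2, or 22.2%, against 12.4% of 32544 windows. The hypoxia response core was found in 16 of the 27, or 59.3%, against 44.0% of all windows. The ATF4 element was found for Me3, Pck2 and Got1, or 11.1%, against 3.91%. The E-box was found in 7.41%, against 7.17% of all windows, and the NRF1 element in 7.41%, against 6.27%. The ERR element was found in 3.70%, against 4.71%. The 27 windows are 1 per gene. The 32544 windows were limited neither to 1 per gene nor to the genes tested here, so these shares are not a like comparison. A match is a run of letters, not a site of binding.

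Among the other enzymes that exchange malate, pyruvate and citrate none passed. Me3, a mitochondrial NADP-dependent malic enzyme, had 14.2, 16.8 and 20.3 CPM as lowest, median and highest values in Opa1cKO, against 10.7, 13.7 and 19.5 CPM in WT. Its log2 fold change was 0.36 (SE 0.135, edgeR adjusted p = 0.108), and it passed in 1 of 26 alternatives, without WT 2. Me2, the mitochondrial NAD-dependent form, stood at 23.4 ± 1.23 CPM in Opa1cKO and 23.6 ± 3.54 CPM in WT.

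The ratio of Me1 to Me2, taken within each library, ran from 10.9 to 13.1 in Opa1cKO and from 13.9 to 18.9 in WT, with no overlap. The log2 difference was -0.45 (SE 0.0770, two-sided exact permutation p = 0.00216, the smallest that 6 against 6 allows, adjusted p = 0.0173 over 8 ratios). Unlike the edgeR fit, the permutation tests of ratios held no term for sex. The ratio of Me3 to Me2 ran from 0.606 to 0.920 in Opa1cKO and from 0.405 to 0.752 in WT and did not pass (exact permutation p = 0.115, adjusted p = 0.229). Pcx, pyruvate carboxylase, which makes oxaloacetate from pyruvate, was at 76.3 ± 15.1 CPM in Opa1cKO and 66.8 ± 8.47 CPM in WT, and Pck2, mitochondrial phosphoenolpyruvate carboxykinase, at 17.0 ± 3.30 CPM in Opa1cKO and 14.3 ± 1.80 CPM in WT. Both overlapped widely between genotypes (edgeR adjusted p = 0.566 and 0.301).

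Acly, ATP citrate lyase, which splits exported citrate into cytosolic acetyl-CoA, and Cs, citrate synthase, which makes citrate in the matrix, catalyse opposed reactions. Cs had 95.7, 102 and 119 CPM as lowest, median and highest values in Opa1cKO, against 75.5, 86.5 and 101 CPM in WT. In 3 of 6 Opa1cKO libraries it was above every WT library, but its fold change (log2 0.26, SE 0.0951, edgeR adjusted p = 0.0977) passed in none of 26 alternatives (adjusted p from 0.0568 to 0.765). Without the 4 libraries of contradicted sex it was 0.087. Acly had 99.9, 111 and 174 CPM in Opa1cKO, against 117, 127 and 139.5 CPM in WT, which left its log2 fold change at 0.01 (SE 0.121, edgeR adjusted p = 0.974). In 4 Opa1cKO libraries Acly was below every WT library, and Opa1cKO 6, at 174 CPM, was above them all.

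The ratio of Acly to Cs was 1.03 to 1.17 in 5 Opa1cKO libraries and 1.77 in Opa1cKO 6, against 1.37 to 1.58 in WT. Over all 12 libraries the log2 difference of -0.33 (SE 0.130) did not pass (exact permutation p = 0.0281, adjusted p = 0.0750 over the 8 ratios). Without Opa1cKO 6 it was -0.45 and passed (adjusted p = 0.0173), the only 1 of its 14 alternatives that did. With 1 library left out the adjusted p ran from 0.0173 to 0.167, and over all 14 alternatives up to 0.524. Whether this ratio passed thus turned on that library.

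**Figure D3:**
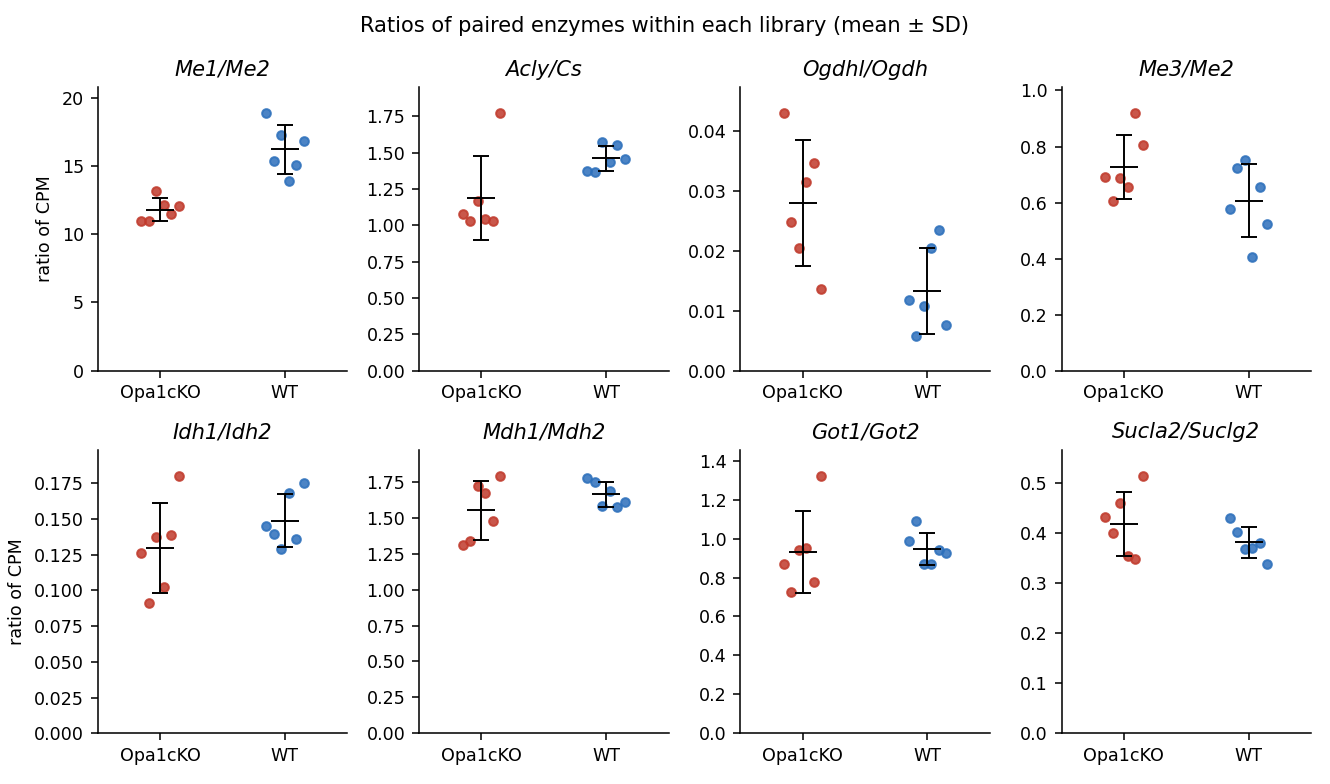
Ratio of the CPM of 2 enzymes within each library, 1 point per library, Opa1cKO in red left of WT in blue, with mean and SD in black. The Me1 to Me2 ratio is at most 13.1 in Opa1cKO and at least 13.9 in WT, and in the Acly to Cs panel Opa1cKO 6 lies at 1.77, above all other libraries.

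From citrate to 2-oxoglutarate, none of 7 genes passed. Idh3a, the catalytic alpha subunit of the NAD-dependent isocitrate dehydrogenase, had 42.5, 55.6 and 76.3 CPM as lowest, median and highest values in Opa1cKO, against 40.4, 43.8 and 55.3 CPM in WT. Opa1cKO 3 and Opa1cKO 6 were highest, and Opa1cKO 2, Opa1cKO 4 and Opa1cKO 5 lay within the WT range (log2 fold change 0.37, SE 0.143, edgeR adjusted p = 0.119). Without Opa1cKO 5 it passed, at 0.52 (adjusted p = 0.0158, from 0.0158 to 0.675 over 26 alternatives). Its partner subunits Idh3b and Idh3g both stood at 0.07, with 95% intervals of -0.11 to 0.24 and -0.12 to 0.26.

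Idh2 had 149.6, 171 and 196 CPM in Opa1cKO, against 134, 148 and 202 CPM in WT, so the WT range enclosed that of Opa1cKO (log2 fold change 0.15, edgeR adjusted p = 0.5004). Idh1, its cytosolic counterpart, was at 22.1 ± 4.16 CPM in Opa1cKO and 23.3 ± 3.71 CPM in WT. The ratio of Idh1 to Idh2 ran from 0.0910 to 0.180 in Opa1cKO and from 0.129 to 0.175 in WT (exact permutation p = 0.195, adjusted p = 0.292). Aco1, the cytosolic aconitase that also serves as an iron sensor, was at 61.0 ± 5.37 CPM in Opa1cKO and 67.9 ± 8.198 CPM in WT (edgeR adjusted p = 0.468).

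From 2-oxoglutarate to succinate, none of 7 genes passed, and the oxoglutarate dehydrogenases leaned opposite ways. Ogdh, the catalytic subunit of the main complex, had 139, 161 and 209 CPM as lowest, median and highest values in Opa1cKO, against 180.3, 192 and 216 CPM in WT. In 5 Opa1cKO libraries it was below every WT library, and Opa1cKO 3, at 209 CPM, was within the WT range. The log2 fold change was -0.25 (SE 0.104, edgeR adjusted p = 0.155), and without Opa1cKO 3 it passed, at -0.31 (adjusted p = 0.0207, from 0.0207 to 0.827 over 26 alternatives). Ogdhl, the Ogdh-like protein gene, had 2.25, 4.51 and 6.93 CPM in Opa1cKO, against 1.24, 2.26 and 4.25 CPM in WT. Its fold change was the largest of the 29 (log2 0.69, SE 0.344), but its libraries scattered most and it did not pass (edgeR adjusted p = 0.236).

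The ratio of Ogdhl to Ogdh averaged 0.0263 in Opa1cKO and 0.0118 in WT (geometric means), a log2 difference of 1.15 that did not pass (SE 0.404, exact permutation p = 0.0195, adjusted p = 0.0750). Without Opa1cKO 6, where Ogdhl was lowest of its genotype, the difference was 1.34 and passed (adjusted p = 0.0404). The remaining subunits did not pass. Dlst and Dld, the E2 and E3 subunits, stood at 0.06 each, and Suclg1, the alpha subunit shared by both succinyl-CoA ligases, at 0.05. Suclg2, the GTP-forming beta subunit, was at 70.9 ± 7.76 CPM in Opa1cKO and 82.7 ± 9.35 CPM in WT (log2 fold change -0.20, edgeR adjusted p = 0.248), and Sucla2, the ATP-forming one, at -0.04. Their ratio, Sucla2 to Suclg2, overlapped (exact permutation p = 0.255, adjusted p = 0.292).

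From fumarate to oxaloacetate, none of 3 genes passed, with adjusted p of 0.807 or more from edgeR. Mdh2, the mitochondrial malate dehydrogenase, averaged 70.4 ± 8.65 CPM in Opa1cKO and 70.0 ± 8.40 CPM in WT, with a 95% interval of -0.25 to 0.25 on the log2 scale. Fh1, fumarate hydratase, was at 28.3 ± 2.35 CPM in Opa1cKO and 29.3 ± 3.79 CPM in WT. Mdh1, the cytosolic malate dehydrogenase of the malate-aspartate shuttle, was at 109 ± 19.96 CPM in Opa1cKO and 117 ± 20.2 CPM in WT. The ratio of Mdh1 to Mdh2 did not separate the genotypes (exact permutation p = 0.236, adjusted p = 0.292).

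Among the glutamate enzymes none of 6 passed, with Glul nearest. Glul had 188, 238 and 276 CPM as lowest, median and highest values in Opa1cKO, against 245, 308 and 448 CPM in WT. In 3 Opa1cKO libraries it was below every WT library, and WT 1 and WT 6, at 448 and 447 CPM, were well above the others. The log2 fold change was -0.53 (SE 0.162, edgeR adjusted p = 0.0517). It passed in 7 of 26 alternatives, among them DESeq2 (adjusted p = 0.0172) and the fit with no sex covariate (adjusted p = 0.0317), with adjusted p from 0.0172 to 0.616 over all. A processed pseudogene, Glns-ps1, matched 1122 bases of Glul at up to 96.8% identity.

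Got2, the mitochondrial aspartate aminotransferase, had 75.4, 81.0 and 101 CPM in Opa1cKO, against 67.1, 69.7 and 79.2 CPM in WT. In 5 Opa1cKO libraries it was above every WT library, but the log2 fold change of 0.24 (SE 0.0882) did not pass (edgeR adjusted p = 0.105) in any of 26 alternatives (adjusted p from 0.0636 to 0.656). Its pseudogene Got2-ps1 matched 1293 bases at up to 99.1% identity. Got1, the cytosolic form, was at 78.6 ± 19.8 CPM in Opa1cKO, with Opa1cKO 6 at 109 CPM, and 68.2 ± 10.1 CPM in WT, and the ratio of Got1 to Got2 overlapped (exact permutation p = 0.753). Pseudogenes also matched Suclg2, Glud1 and D2hgdh at 95% identity or more, so their counts carry the same doubt.

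Glud1, which interconverts glutamate and 2-oxoglutarate, had 192, 219.6 and 253 CPM in Opa1cKO, against 169, 202 and 231 CPM in WT (log2 fold change 0.19, SE 0.0959, edgeR adjusted p = 0.249). Gpt2, the mitochondrial alanine aminotransferase, was at 15.3 ± 2.12 CPM in Opa1cKO and 13.0 ± 2.25 CPM in WT. D2hgdh, which turns D-2-hydroxyglutarate back to 2-oxoglutarate, was at 18.3 ± 5.39 CPM in Opa1cKO and 16.5 ± 3.73 CPM in WT (edgeR adjusted p = 0.378).

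**Figure D4:**
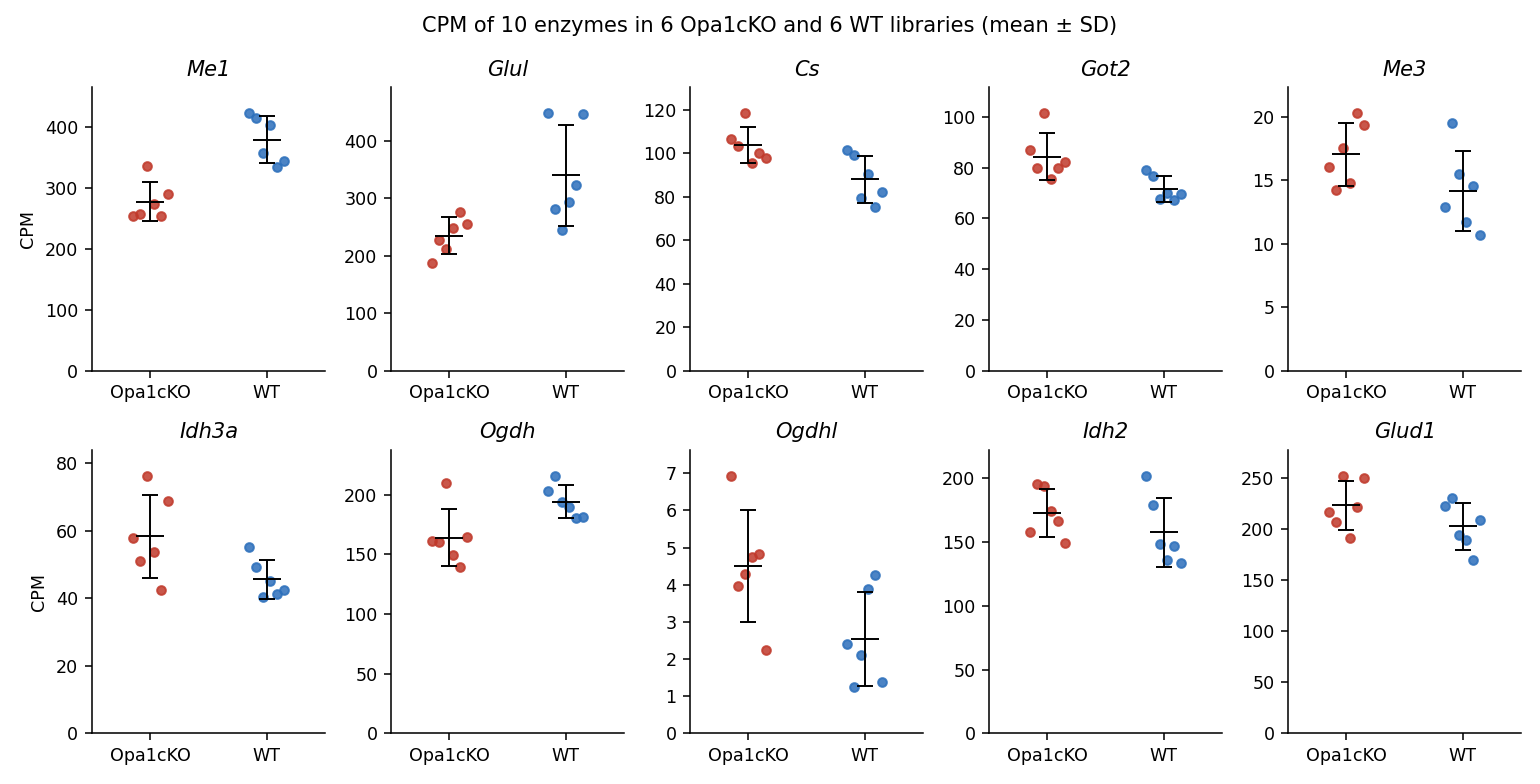
CPM of 10 of the 29 genes in each library, Opa1cKO in red left of WT in blue, with mean and SD in black (n = 6 each) and axes from 0. Me1 is below every WT library in 5 of 6 Opa1cKO libraries, Got2 above in 5, and WT 1 and WT 6 stand high for Glul.

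Within each genotype 1 library stood highest for most of the 29 genes. Opa1cKO 3 was the highest Opa1cKO library for 17 of them and WT 1 the highest WT library for 16. Against the mean of the WT libraries, the median gene of the list stood at 0.26 on the log2 scale in Opa1cKO 3, 0.18 in WT 1 and 0.14 in WT 2, and between -0.11 and 0.02 in the other 9 libraries. Opa1cKO 3 and WT 1 were also the most deeply sequenced libraries, with 56618266 and 53261644 counts, and the part of depth in this was not tested. How often these libraries stood highest over all genes tested was not counted, so a pattern of the 29 cannot be told from one of the whole library. Against the other libraries of its own genotype, the median gene stood at 0.23 in Opa1cKO 3 and 0.22 in WT 1. The genotype difference of the median gene, 0.06, compares groups of 6 libraries, so it is not a like measure to set beside single libraries.

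**Figure D5:**
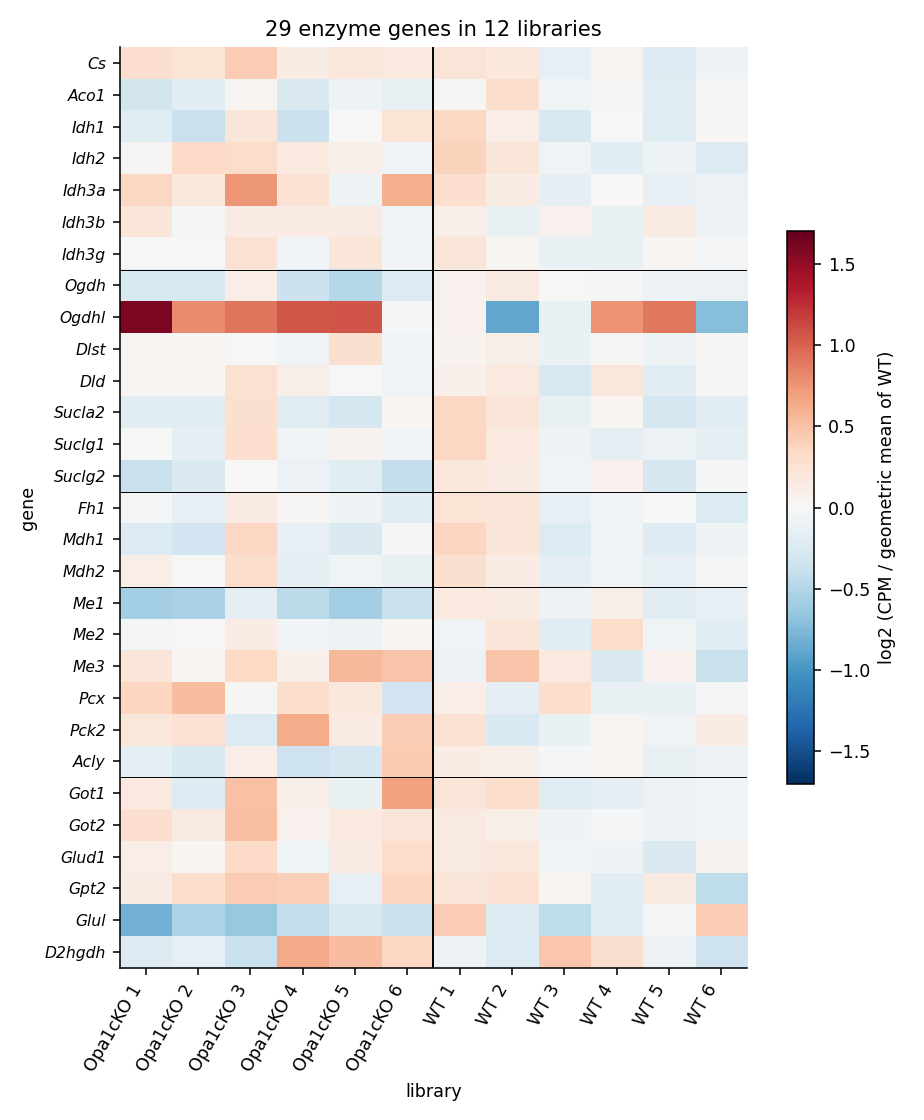
Each gene (rows, ordered by reaction) in each library (columns, Opa1cKO left of WT) as the log2 of its CPM over the geometric mean of WT. The columns of Opa1cKO 3 and WT 1 are warm for most genes, the row of Me1 is cool in Opa1cKO, and Ogdhl has the widest range.

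Beyond the 29, other genes of the same metabolism were counted in lists, each set beside the 10.2% called over all genes tested and their median of 0.01. None of 8 tested genes of the rest of the cycle passed, among them the succinate dehydrogenase subunits Sdha (-0.09), Sdhb (0.23), Sdhc (-0.07) and Sdhd (-0.18). Their median log2 fold change was -0.11. Of 9 tested metabolite carriers 1 rose. Slc25a22, a carrier that imports glutamate into mitochondria, ran from 11.5 to 16.7 CPM in Opa1cKO and from 8.25 to 11.8 CPM in WT, overlapping by Opa1cKO 3 alone (log2 fold change 0.49, SE 0.120, edgeR adjusted p = 0.0200). It was not called without WT 6 (0.48, adjusted p = 0.0626), without Opa1cKO 6 (0.47, adjusted p = 0.0682), without the 4 libraries whose sex-linked reads contradict their label (0.55, adjusted p = 0.174), or in labelled females (0.55, adjusted p = 0.150) or males (0.44, adjusted p = 0.284) alone. Over 26 alternatives adjusted p ran from 0.00329 to 0.284.

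Of 24 tested genes of glutamate, proline and aspartate-linked synthesis 5 rose and 1 fell, with a list median of 0.04. Those that rose were Pycr1 (1.41), the last step to proline, Asns (1.26), which uses glutamine to make asparagine, Psat1 (1.17), a glutamate-using step of serine synthesis, Bcat1 (1.41), the cytosolic branched-chain aminotransferase, and Ass1 (2.51), argininosuccinate synthase, which was scarce at 2.74 ± 1.31 CPM in Opa1cKO and 0.434 ± 0.284 CPM in WT. Asl, argininosuccinate lyase, the next step after Ass1, fell by 0.59 on the log2 scale, to 9.11 ± 0.770 CPM in Opa1cKO, against 13.6 ± 2.21 CPM in WT (edgeR adjusted p = 0.00926). Without Opa1cKO 6 Bcat1 was at 1.03 and Psat1 at 0.91 and neither passed (adjusted p = 0.0971 and 0.0562). Without the 4 libraries of contradicted sex 5 of the 6 calls were lost, those of Asns (1.302, adjusted p = 0.0619), Ass1 (2.47, adjusted p = 0.142), Psat1 (1.21, adjusted p = 0.127), Bcat1 (1.90, adjusted p = 0.0805) and Asl (-0.42, adjusted p = 0.288), while Pycr1 passed, at 1.78. In labelled females alone none of the 6 passed, and in labelled males alone Ass1, Psat1 and Bcat1 did not.

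Of 11 tested transporters of glutamate and glutamine 1 rose, Slc7a5, a large neutral amino acid exchanger, at 36.8 ± 5.27 CPM in Opa1cKO and 22.5 ± 3.55 CPM in WT (log2 fold change 0.70, SE 0.132, edgeR adjusted p = 0.00450). It did not pass without the 4 libraries of contradicted sex (0.86, adjusted p = 0.0562), or in labelled females (0.82, adjusted p = 0.0693) or males (0.60, adjusted p = 0.120) alone. Of 7 tested genes of the propionyl-CoA route into succinyl-CoA 1 fell. Mmut, methylmalonyl-CoA mutase, ran from 30.7 to 48.9 CPM in Opa1cKO and from 47.9 to 57.3 CPM in WT (log2 fold change -0.48, SE 0.105, edgeR adjusted p = 0.0114), with Opa1cKO 3 alone inside the WT range. It did not pass without the 4 libraries of contradicted sex (-0.68, adjusted p = 0.0531), or in labelled females (-0.64, adjusted p = 0.0534) or males (-0.30, adjusted p = 0.298) alone. None of 4 tested genes of hydroxyglutarate and itaconate handling and none of 8 of acetyl-CoA use passed, the nearest being Fasn, fatty acid synthase, at -0.44 (edgeR adjusted p = 0.0791).

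Of the 12 nucleus pulposus markers 1 fell, Cdh2, and lists of other cells held 4 called genes in all. In the adipocyte list 6 of 7 markers, Adipoq and Plin1 among them, stayed under 1 CPM in every library, and the list's sum of 119 to 248 CPM in Opa1cKO and 67.5 to 102 CPM in WT was almost all Plin4, which rose by 1.07 on the log2 scale. In the macrophage list Cd68 rose, Csf1r and Mpeg1 fell, and Adgre1, C1qa, C1qb and C1qc averaged below 1 CPM in both genotypes, with list sums of 97.8 to 118 CPM in Opa1cKO and 102 to 194 CPM in WT. The annulus and fibroblast list held no called gene and summed to 252 to 521 CPM in Opa1cKO and 154 to 366 CPM in WT. In WT it was lowest in WT 1 and WT 2, at 158 and 154 CPM, which were the WT libraries with the highest median over the 29 genes. This was not so in Opa1cKO, where Opa1cKO 3, with the highest median, had a sum of 425 CPM. The lowest sum of that genotype, 252 CPM, was in Opa1cKO 5, whose median was 0.01. The part of other cells in the fall of Me1 or in the variation between libraries was not tested.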

How the data were processed

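The submitters' processing notes name STAR 2.7.11b and mm10; neither read counter, annotation nor strand use was found in the labels. The authors deposited whole-number read counts per gene and a TPM table, whose gene lengths are not stated. For the counts, edgeR 4.0.16 in R 4.3.3 was used on all 12 libraries: filterByExpr (minimum count 10), TMM scaling, then a quasi-likelihood fit, robust, with terms for labelled sex and genotype. P-values were adjusted by Benjamini-Hochberg over 15229 genes and called below 0.05. Standard errors are the log2 fold change over the root of F. Ratios of CPM were compared by two-sided exact permutation, with no term for sex. The 29 genes, the other lists and the rule for named genes (genes called, the next by p up to 6, the 4 highest by TPM and the largest rise and fall) were chosen with earlier results of these data known; Ogdh and Acly were added after their values were seen. The edgeR step was tested on simulated data. Positions and overlaps come from GENCODE M21, promoters from RefSeq, near-identical copies from BLAST 2.17.0 (at least 95% identity over 150 bases). Alternatives used DESeq2 1.42.0, limma 3.58.1, TPM with pseudocounts of 1 and 0.1, other scalings, filters and covariates, single labelled sexes, and omission of each library in turn. Reads copied by PCR are not separate molecules. All pairs of libraries differed by more than sampling noise (smallest chi-square per degree of freedom 33.2). Results for some genes of the wider lists are not reported here.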

Additional observations from a re-analysis of the deposited data

Results flagged for a closer look

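In 3 of 76 sets of 6 values checked, 1 library stood far from the other 5, where chance gives about 1 in 20. Ogdh was at 209 CPM in Opa1cKO 3, with the other Opa1cKO libraries at 139 to 165 CPM. Dlst was at 105 CPM in Opa1cKO 5, with the other Opa1cKO libraries at 82.7 to 89.5 CPM. The ratio of Acly to Cs was 1.77 in Opa1cKO 6, with the other Opa1cKO libraries at 1.03 to 1.17.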

How the results depend on the processing

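Opa1 kept its call in all 26 alternatives and Me1 its direction. The number of genes called higher (777) and lower (781) was 351 and 418 with a replicate block, 188 and 137 without the 4 libraries of contradicted sex, 167 and 133 in labelled females, 161 and 258 in labelled males, and 323 to 1002 and 496 to 1008 with 1 library left out; DESeq2 called 1189 higher. The replicate numbers shared by the labels gave no pairing: correlations of same-numbered libraries ran from -0.333 to 0.125, and 0 of 6 libraries correlated best with its own number. With the replicate block the calls of Me1 (-0.42, edgeR adjusted p = 0.0742), Slc25a22 (0.49, 0.112) and Psat1 (1.11, 0.0800) were lost. Of the 29 genes, 2 were called lower with no sex covariate, DESeq2 or upper quartile scaling, 0 with the block, without the contradicted libraries or in labelled females, and 0 to 2 with 1 library left out, when 0 to 1 were called higher. Without the contradicted libraries Me1 to Me2 was at -0.55, a larger difference, with an exact permutation p of 0.0179, the smallest that 5 against 3 libraries allow (adjusted p = 0.143). With 1 library left out, Acly to Cs ran from -0.45 to -0.29 and Ogdhl to Ogdh from 0.94 to 1.35.

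Several genes changed sign, none past the threshold in any setting; among them Gpt2, Idh2 and Pcx stood at 0.24, 0.15 and 0.14 over all libraries. The cause was not tested. Without the contradicted libraries these were Idh1 (0.032), Idh2 (-0.16), Dld (-0.033), Suclg1 (-0.14), Mdh2 (-0.20), Me2 (-0.018), Pcx (-0.15) and Gpt2 (-0.028). In labelled females they were Idh1 (0.063), Idh2 (-0.068), Dld (-0.073), Suclg1 (-0.064), Mdh2 (-0.15), Me2 (-0.096) and Pcx (-0.098), and in labelled males Sucla2 (0.18), Fh1 (0.13), Mdh1 (0.0904) and Acly (-0.039). With sex by reads they were Mdh2 (-0.045), Me2 (-0.063) and Acly (-0.049), and with no sex covariate Me2 (-0.0079) and Acly (-0.059). Mdh2 stood at -0.0015 with DESeq2 and RLE scaling, -0.0052 with upper quartile scaling and -0.0042 with no filter, Idh1 at 0.00997 and 0.00993 on TPM with pseudocounts of 1 and 0.1, and Acly at -0.0199 with the block and -0.021 with limma-voom. With 1 library left out, ranges were -0.076 to 0.053 for Idh1, -0.0095 to 0.12 for Dlst, -0.0079 to 0.11 for Dld, -0.12 to 0.073 for Sucla2, -0.0073 to 0.10 for Suclg1, -0.12 to 0.0195 for Fh1, -0.16 to 0.012 for Mdh1, -0.063 to 0.052 for Mdh2, -0.0303 to 0.0797 for Me2, -0.16 to 0.12 for Acly and -0.15 to 0.018 for Got1 to Got2.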
